A study of Mus musculus with 6 samples.

Results

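The genes described here are 10 stromal niche factors for blood stem cells, the genes through which connective tissue cells of the bone marrow keep blood stem cells and early lymphoid cells in place and alive. They were taken by symbol: the secreted factors *Cxcl12*, *Kitl*, *Il7* and *Angpt1*, the surface proteins *Lepr*, *Vcam1*, *Pdgfra* and *Pdgfrb*, and the transcription factors *Foxc1* and *Ebf3*. All 10 were found among the 55401 gene identifiers of the count tables, and all 10 passed the filter on low counts. The RNA came from whole tibias of male mice at 8 weeks of age, 3 of genotype Osterix-Cre; Atrxf/y (Atrx-cKO) and 3 of genotype Atrxf/y (control), so both groups carried the floxed allele of *Atrx*, which encodes a chromatin remodeler, and the Cre transgene was in the Atrx-cKO mice alone. In this transgene the *Sp7* (*Osterix*) promoter drives a tetracycline-controlled activator, which switches on a fusion of EGFP and Cre when doxycycline is withdrawn, and by the study's methods the mice were kept on doxycycline until 3 weeks of age. No mouse with Cre and an intact *Atrx* was among the 6 libraries, so in these data the presence of the transgene and the loss of *Atrx* cannot be told apart. Outside these libraries, the study compared mice with Cre and intact *Atrx* with floxed controls. It reported no statistical difference in bone structure or in tibial *Runx2*, *Col1a1* and *Ocn*, and did not report the niche genes there.

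Much of the niche is made by perivascular reticular cells of the marrow, which are known for their high CXCL12 and for carrying the leptin receptor on their surface. CXCL12 draws stem cells and B cell precursors through CXCR4 and holds them in the marrow, KIT ligand keeps stem cells alive through KIT, and interleukin 7 is required by developing B cells. *Foxc1* and *Ebf3* encode transcription factors that keep these reticular cells in their niche-supporting state, and *Osterix-Cre* is known to mark such stroma in addition to osteoblasts. The comparison of Atrx-cKO with control tibias therefore asks whether the RNA of these factors differed between bones with and without *Osterix-Cre* on the floxed background. Whether the reticular cells of these mice, kept on doxycycline until 3 weeks of age, had lost *Atrx* cannot be read from counts of whole tibias.

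Each library held between 50977777 and 70571655 reads counted on genes, which were 42.8% to 43.8% of all entries in its table, while 51.6% to 52.4% were tallied as on no feature. Levels are given as CPM, the read count scaled to a common library size, here by TMM, a normalization for library size and composition, and differences as log2 fold changes of Atrx-cKO over control with a 95% interval from edgeR's quasi-likelihood test, with p-values adjusted by Benjamini-Hochberg over the 20636 genes tested. The 3 libraries of a genotype differed by more than sampling noise (chi-square per degree of freedom 15.8 to 137 over the pairs). Nothing in the labels says more of the mice than their genotype, so p-values measure the spread between these samples. *Atrx* counted over its whole gene was 163 ± 9.54 CPM in Atrx-cKO mice and 169 ± 4.98 CPM in control mice (SD, n = 3 each, adjusted p = 0.992 by edgeR), and since the count is not limited to the deleted part, it does not check the genotypes. The tibias contained bone and marrow: the 6 osteoblast markers summed to 57865 to 99286 CPM per library and the 5 neutrophil markers to 4800 to 8128 CPM. In whole tissue, fewer cells of a type and less RNA per cell cannot be told apart.

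None of the 10 niche genes passed the test between genotypes. With edgeR, 0 of 10 had an adjusted p under 0.05, beside 0.0145% of all genes tested, and DESeq2 called 0 of 10 as well. At an unadjusted p under 0.05 the count was also 0 of 10, beside 3.64% of all genes tested. The 3 Atrx-cKO values overlapped the 3 control values for each of the 10 genes, where 8.31% of all genes tested had groups that did not overlap. The estimates were small, from -0.24 for *Pdgfra* to 0.24 for *Angpt1*, with 9 above 0 and 1 below, and their median was 0.053 beside 0.0050 over all genes tested. With 3 mice per genotype, the intervals below show how large a difference remained possible for each gene.

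Before differences, the levels themselves separate the members widely. Per length of exon, as TPM (a transcript share scaled for library size, computed from the counts with the exon lengths of GENCODE M21), *Cxcl12* stood at 1369 TPM on average over the 6 libraries, with a range of 1078 to 1542, and ranked place 52 among all genes. The next gene, *Vcam1*, was at 146 TPM, and its highest library at 186 TPM lay far under the lowest of *Cxcl12*. From *Vcam1* through *Pdgfrb* at 126, *Lepr* at 93.6, *Kitl* at 77.8 and *Pdgfra* at 74.0 TPM, each gene overlapped the next one in the order over the libraries. A gap followed, since the lowest *Pdgfra* library was at 57.3 TPM and the highest *Foxc1* library at 49.0 TPM. *Foxc1* at 38.2, *Ebf3* at 35.8 and *Angpt1* at 30.1 TPM overlapped again, and *Il7* was lowest at 6.26 TPM, with its highest library at 8.21 TPM under the lowest of *Angpt1* at 21.7 TPM. In TPM the order of the secreted factors was thus CXCL12, KIT ligand, angiopoietin 1 and interleukin 7.

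*Cxcl12* (ENSMUSG00000061353, chromosome 6 from 117168535 to 117181367 on the plus strand, GRCm38), the chemokine that retains stem cells, rested on 131383 to 215967 counts per library. Its level was 3474, 3424 and 3666 CPM in the 3 Atrx-cKO libraries and 3500, 3079 and 2760 CPM in the 3 controls. The Atrx-cKO values were close together, and control 1 lay among them while the other controls lay lower. The means were 3522 ± 128 and 3113 ± 371 CPM (SD, n = 3 each), a log2 fold change of 0.18 with a standard error of 0.12 (adjusted p = 0.992 by edgeR). The 95% interval ran from -0.10 to 0.46, which is from a fall of 6.87% to a rise of 37.5%.

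*Kitl* (ENSMUSG00000019966, chromosome 10 from 100015630 to 100100416, plus strand), which encodes stem cell factor, was at 92.4, 152 and 165 CPM in Atrx-cKO libraries and at 149, 134 and 125 CPM in controls. The lowest and the highest value were thus both from Atrx-cKO mice, and all controls lay between them. Both means were 136 CPM, with an SD of 38.6 in Atrx-cKO and 11.8 in control mice, and the log2 fold change was 0.0028 with an interval from -0.47 to 0.47 (adjusted p = 0.999 by edgeR). A fall of 27.6% or a rise of 38.7% remained inside that interval.

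*Il7* (ENSMUSG00000040329, chromosome 3 from 7569994 to 7613760, minus strand) was the scarcest member, with 429 to 797 counts per library. It stood at 7.34, 11.8 and 13.5 CPM in Atrx-cKO and at 11.8, 7.34 and 11.3 CPM in control libraries. One low library in each genotype, Atrx-cKO 1 and control 2, sat at the same level, and the other 4 sat above. The interval of the log2 fold change was the widest of the 10, from -0.51 to 0.71 around 0.10 (adjusted p = 0.994 by edgeR), so a fall of 29.6% and a rise of 64.1% were both within reach.

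*Angpt1* (ENSMUSG00000022309, chromosome 15 from 42424723 to 42676977, minus strand) encodes a ligand of the TIE2 receptor on endothelial and stem cells. Its level was 39.8, 54.3 and 56.0 CPM in Atrx-cKO and 54.0, 34.2 and 39.2 CPM in control libraries. A pair of Atrx-cKO libraries and control 1 were high and the other 3 were low, so the groups overlapped. The log2 fold change of 0.24 was the highest of the members, with a standard error of 0.19 and an interval from -0.21 to 0.69 (adjusted p = 0.992 by edgeR).

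Among the surface proteins, *Lepr* (ENSMUSG00000057722, chromosome 4 from 101717404 to 101815352, plus strand) encodes the leptin receptor by which adult niche cells are recognized. It was at 151, 212 and 227 CPM in Atrx-cKO and at 208, 198 and 177 CPM in control libraries. As for *Kitl*, Atrx-cKO 1 was the lowest of all and Atrx-cKO 3 the highest. The log2 fold change was 0.015, with an interval from -0.35 to 0.38 (adjusted p = 0.998 by edgeR).

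*Vcam1* (ENSMUSG00000027962, chromosome 3 from 116109949 to 116129688, minus strand), the adhesion molecule that binds the integrin of alpha 4 and beta 1 subunits on blood cells, was at 310, 478 and 429 CPM in Atrx-cKO and at 440, 304 and 339 CPM in control libraries. Its highest and its lowest library came from different genotypes, yet each group had values in the range of the other. The log2 fold change was 0.17, with an interval from -0.28 to 0.62 (adjusted p = 0.992 by edgeR).

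*Pdgfra* and *Pdgfrb* encode the receptors for platelet-derived growth factors on mesenchymal cells. *Pdgfra* (ENSMUSG00000029231, chromosome 5 from 75152292 to 75198215, plus strand) was at 176, 201 and 232 CPM in Atrx-cKO and at 182, 269 and 266 CPM in control libraries. A pair of controls lay above all Atrx-cKO values and control 1 lay among the low ones. It was the member with a negative log2 fold change, at -0.24 with an interval from -0.64 to 0.16 (adjusted p = 0.992 by edgeR), which held a fall of up to 35.7%. *Pdgfrb* (ENSMUSG00000024620, chromosome 18 from 61045150 to 61085061, plus strand) was at 239, 172 and 209 CPM in Atrx-cKO and at 194, 213 and 205 CPM in control libraries. Here Atrx-cKO 1 was the highest of the 6 libraries and Atrx-cKO 2 the lowest, and the log2 fold change was 0.018 with an interval from -0.27 to 0.31 (adjusted p = 0.997 by edgeR).

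The transcription factor gene *Foxc1* (ENSMUSG00000050295, chromosome 13 from 31806633 to 31812476, plus strand) was at 52.1, 63.2 and 83.3 CPM in Atrx-cKO and at 62.1, 66.2 and 70.2 CPM in control libraries. The controls lay close together inside the wider range of the Atrx-cKO libraries. Both means were 66.2 CPM, and the log2 fold change was 0.0019 with an interval from -0.37 to 0.37 (adjusted p = 0.999 by edgeR). *Ebf3* (ENSMUSG00000010476, chromosome 7 from 137193673 to 137314445, minus strand) was at 80.6, 105 and 117 CPM in Atrx-cKO and at 104, 95.7 and 84.3 CPM in control libraries. Its lowest and highest values were again Atrx-cKO 1 and Atrx-cKO 3, and the log2 fold change was 0.087 with an interval from -0.25 to 0.43 (adjusted p = 0.992 by edgeR).

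**Figure D1:**
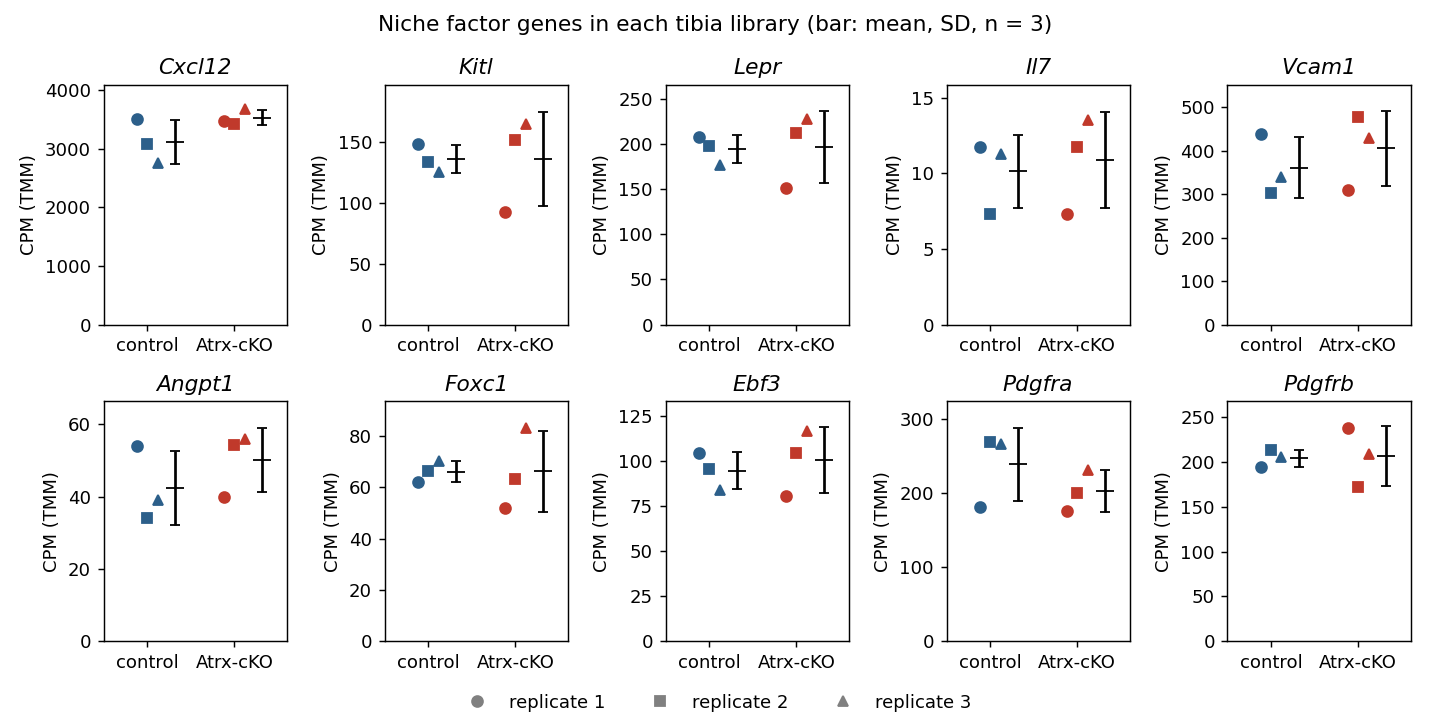
Level of each of the 10 niche genes in CPM (vertical axis, from 0) in the 3 control (blue) and 3 Atrx-cKO (red) tibia libraries, with the symbol giving the replicate number and bars the mean and SD (n = 3). The groups overlap for every gene, and Atrx-cKO replicate 1 is low for most genes, as for Kitl at 92.4 CPM.

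Some member exons are overlapped by genes annotated on the opposite strand. The labels describe strand-specific libraries but name a kit whose standard form does not mark strand. Whether counting used strand is not given in the sources used here, so reads of such pairs cannot be fully told apart. The overlap was 737 exonic bases for *Angpt1* with *Gm17473*, or 14.2% of its exons, 456 for *Pdgfra* with *Gm42802* and 166 with *Gm42803*, 355 for *Ebf3* with *Gm45278*, 105 for *Il7* with *Gm16685* and 61 for *Vcam1* with *Gm43109*. The shared part of the exons was thus largest for *Angpt1*, while for *Il7* it was 1.85%. The whole count of the antisense gene, shared bases or not, reached 38.7% of that of *Il7* in Atrx-cKO 1. It was 166 counts there and 51 to 115 in the other libraries. For *Angpt1* and *Ebf3* the antisense counts reached 18.0% and 16.9%. *Cxcl12*, *Kitl*, *Lepr*, *Foxc1* and *Pdgfrb* had no such exonic overlap in the annotation.

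On median, the members spread more widely between mice of 1 genotype than the genes tested. Over both genotypes, the SD of log2 CPM within a genotype had a median of 0.258 over the 10 genes, beside 0.163 over tested genes with a mean of at least 1 CPM. In the Atrx-cKO mice alone the median SD was 0.295 beside 0.135, and in the controls 0.163 beside 0.154. The SD was larger in Atrx-cKO mice for 7 of 10 members, beside 44.6% of those genes, which was not tested as a difference between genotypes. It was larger in control mice for *Cxcl12* at 0.052 against 0.171, *Angpt1* at 0.272 against 0.339 and *Pdgfra* at 0.200 against 0.322.

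The library Atrx-cKO 1 was the lowest of the 6 for 6 of 10 members, *Kitl*, *Lepr*, *Il7*, *Foxc1*, *Ebf3* and *Pdgfra*. For *Il7* it was level with control 2, at 7.34 CPM in both. Atrx-cKO 1 was the lowest for 18.9% of all genes tested. Its *Kitl* level was 63.8% of the mean of the other 5 libraries, and the corresponding values were 65.9% for *Il7*, 73.8% for *Lepr*, 75.6% for *Foxc1*, 76.4% for *Pdgfra* and 79.6% for *Ebf3*. *Cxcl12* did not share this, at 106%, and *Pdgfrb* was highest in that library, at 120% of the mean of the others. At the other end, Atrx-cKO 3 was the highest library for 7 of 10 members, beside 14.3% of all genes tested. Centred on each gene's own mean, the median log2 CPM of the 10 genes was -0.30 in Atrx-cKO 1, 0.12 in Atrx-cKO 2 and 0.25 in Atrx-cKO 3, and 0.11, -0.0091 and -0.11 in the controls, so both extremes belonged to the same genotype.

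Other cell type markers differed between the same libraries. The 5 neutrophil markers summed to 8128 CPM in Atrx-cKO 1 and to 6012 and 5943 CPM in the other Atrx-cKO libraries, against 4800 to 6817 CPM in the controls. The 12 skeletal muscle markers summed to 2895 CPM in Atrx-cKO 1 and to 821 to 1460 CPM in all others except control 3, which stood far apart at 13728 CPM. The 7 fibroblast and tendon markers summed to 330 CPM in Atrx-cKO 1, to 281 and 230 CPM in the other Atrx-cKO libraries, and to 264 to 425 CPM in the controls. Other lists went the other way among the Atrx-cKO libraries. The 8 B cell markers summed to 190, 235 and 279 CPM in Atrx-cKO 1, 2 and 3, against 133 to 286 CPM in the controls. The 6 adipocyte markers summed to 124, 190 and 195 CPM, against 118 to 186 CPM in the controls. The part of these markers in the levels of the niche genes was not tested beyond fits that leave out 1 library or carry the muscle level as a covariate. Without Atrx-cKO 1, the median log2 fold change of the 10 genes was 0.20 and that of *Kitl* 0.22, and no member was called. With the covariate the median was 0.011.

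**Figure D2:**
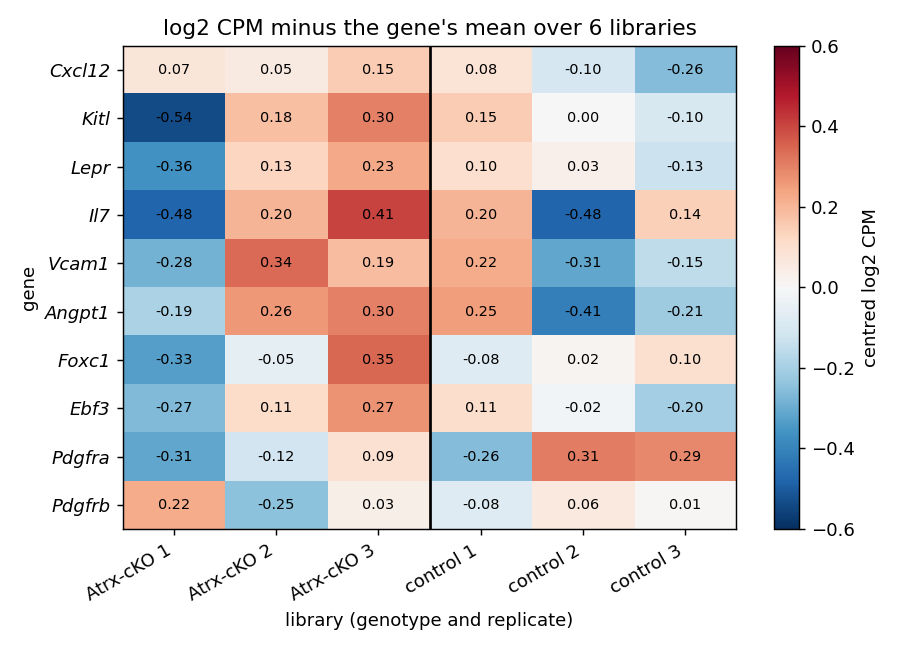
log2 CPM of each niche gene (rows) in each of the 6 libraries (columns, a black line between the genotypes) minus the mean of that gene over the libraries, by color and printed value. Atrx-cKO 1 is the lowest library for 6 of the 10 genes and Atrx-cKO 3 the highest for 7, while Cxcl12 and Pdgfrb do not follow the low values of Atrx-cKO 1.

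*Cxcl12* being the most abundant member, the others were also expressed as counts per 1000 *Cxcl12* counts of the same library, which removes library size from the comparison. *Kitl* gave 44.3 and 45.0 in Atrx-cKO 2 and 3 and 42.5, 43.5 and 45.4 in the controls, and 26.6 in Atrx-cKO 1. *Lepr* gave 61.8 and 61.9 in the same Atrx-cKO libraries, 59.4, 64.4 and 64.1 in the controls, and 43.4 in Atrx-cKO 1. *Ebf3* gave 30.6 and 31.8, then 29.8, 31.1 and 30.5 in the controls, and 23.2 in Atrx-cKO 1. These 3 genes thus kept nearly the same proportion to *Cxcl12* in 5 mice of both genotypes and a lower one in the sixth.

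Across the 5 libraries other than Atrx-cKO 1, the highest ratio exceeded the lowest by a factor of 1.07 for *Kitl*, 1.08 for *Lepr* and 1.07 for *Ebf3*. Of 16170 tested genes with a mean of at least 1 CPM, 32 had a ratio to *Cxcl12* at least as even as that of *Lepr*, which is 0.198%, and the median gene had a factor of 1.47. The 32 include the 3 members themselves and *Gm45278*, the gene antisense to *Ebf3*. With all 6 libraries the factors were 1.71, 1.48 and 1.37, beside 1.51 for the median gene. The library left out and the 3 genes were chosen after their values were seen, so these shares are a description with no test. The other members were less even over the same 5 libraries, with factors of 1.41 for *Vcam1*, 1.43 for *Angpt1* and *Foxc1*, 1.48 for *Pdgfrb*, 1.71 for *Il7* and 1.86 for *Pdgfra*.

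**Figure D3:**
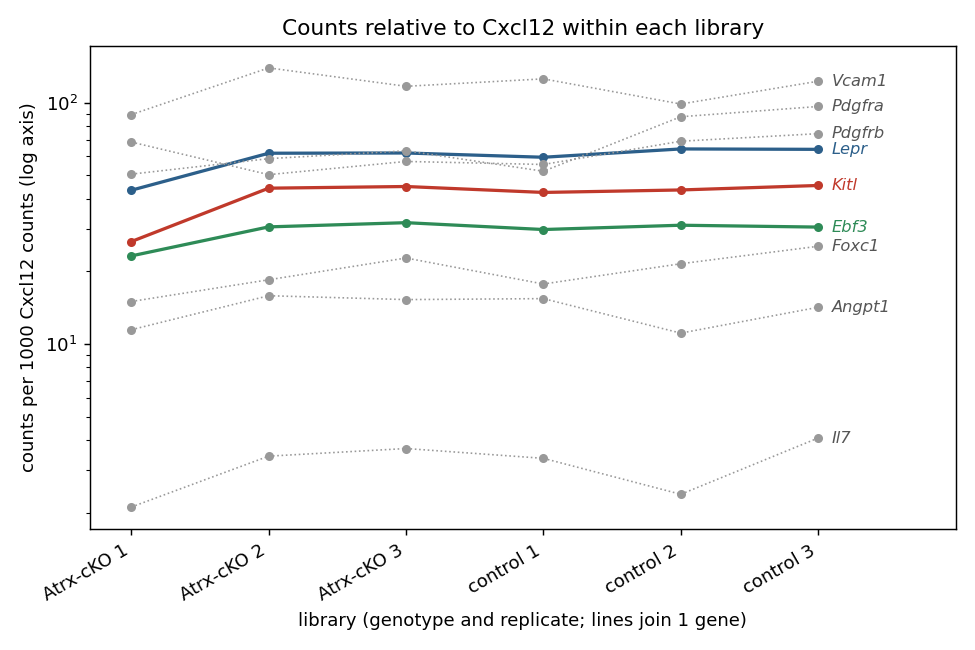
Counts of each other member per 1000 Cxcl12 counts (log axis) in each library, with lines joining the values of 1 gene and no order implied between mice. Kitl (red), Lepr (blue) and Ebf3 (green) are nearly level over 5 libraries and lower in Atrx-cKO 1, where Kitl is at 26.6.

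The promoters of *Cxcl12*, *Kitl*, *Lepr* and *Ebf3* are shown because the RNA levels of these genes kept a near-constant ratio in 5 libraries. Each is the RefSeq sequence from 250 bases before to 50 bases after a transcript start that RefSeq gives on GRCm38.p6, read in the direction of transcription, and RefSeq promoters were matched for 6 of the 10 members. Capitals mark matches, on either strand, to the GC box GGGCGG, the TATA box TATAAA or the EBF motif CCCNNGGG, and adjoining GC boxes can share bases. The *Cxcl12* window is chr6:117168285-117168584 on the plus strand, that of *Kitl* is chr10:100015571-100015870 on the plus strand, those of *Lepr* are chr4:101717157-101717456 and chr4:101717656-101717955 on the plus strand and that of *Ebf3* is chr7:137314396-137314695 on the minus strand. The RefSeq start is the gene start given above for *Cxcl12* and *Ebf3*. For *Kitl* it lies 191 bases downstream of the GENCODE start given above, inside the annotated gene, and for *Lepr* the RefSeq starts lie 3 and 502 bases downstream.
Cxcl12: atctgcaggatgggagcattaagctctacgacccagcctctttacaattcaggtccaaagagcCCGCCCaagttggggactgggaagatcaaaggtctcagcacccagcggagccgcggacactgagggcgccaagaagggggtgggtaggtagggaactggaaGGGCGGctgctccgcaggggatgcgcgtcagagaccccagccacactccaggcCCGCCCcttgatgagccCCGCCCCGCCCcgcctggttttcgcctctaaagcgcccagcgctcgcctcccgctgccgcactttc
Kitl: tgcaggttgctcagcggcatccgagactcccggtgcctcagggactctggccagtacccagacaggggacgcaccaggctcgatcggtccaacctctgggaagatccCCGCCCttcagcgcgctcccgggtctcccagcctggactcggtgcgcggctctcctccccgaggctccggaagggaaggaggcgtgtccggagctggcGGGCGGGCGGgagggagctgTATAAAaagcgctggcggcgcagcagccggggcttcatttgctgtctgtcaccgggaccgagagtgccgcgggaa
Lepr first start: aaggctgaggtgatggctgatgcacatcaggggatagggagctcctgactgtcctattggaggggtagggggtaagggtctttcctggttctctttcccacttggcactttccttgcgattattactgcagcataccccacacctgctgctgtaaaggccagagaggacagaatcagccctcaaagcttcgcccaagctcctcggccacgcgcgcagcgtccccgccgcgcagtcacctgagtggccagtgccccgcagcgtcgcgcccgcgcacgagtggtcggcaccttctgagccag
Lepr second start: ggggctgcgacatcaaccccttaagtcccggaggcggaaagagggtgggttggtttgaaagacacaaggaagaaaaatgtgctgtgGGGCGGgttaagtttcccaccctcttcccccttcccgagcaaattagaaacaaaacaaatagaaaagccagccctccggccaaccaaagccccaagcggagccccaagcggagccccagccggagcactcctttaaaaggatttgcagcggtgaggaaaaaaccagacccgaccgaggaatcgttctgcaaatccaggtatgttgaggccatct
Ebf3: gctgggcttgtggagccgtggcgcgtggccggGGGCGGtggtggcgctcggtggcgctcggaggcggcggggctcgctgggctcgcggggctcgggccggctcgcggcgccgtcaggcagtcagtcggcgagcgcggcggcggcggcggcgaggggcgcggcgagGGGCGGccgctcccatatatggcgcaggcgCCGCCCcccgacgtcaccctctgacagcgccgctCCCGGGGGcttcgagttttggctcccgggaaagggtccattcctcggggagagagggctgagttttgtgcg
*Cxcl12* had 5 GC boxes and no TATA box, *Kitl* had 3 GC boxes and a TATA box 25 bases before its RefSeq start, *Lepr* had no GC box at its first start and 1 at the other, and *Ebf3* had 3 GC boxes and a match to the motif of its own protein family 21 bases before its start. Over 32851 RefSeq promoters of the same length, 35.7% held a GC box, 13.6% a TATA box and 13.7% the EBF motif. The GC content was 64.7% for *Cxcl12*, 68.7% for *Kitl*, 61.3% and 54.3% for *Lepr* and 77% for *Ebf3*, beside a median of 52.7% over all promoters. They held 20, 28, 18, 13 and 46 CG dinucleotides in the same order, beside a median of 7. Of the other matched members, *Foxc1* was at 67.3% GC with 32 CG dinucleotides and 1 GC box, and *Pdgfra* at 51% with 5 and no GC box. Neither the forkhead motif TGTTTAC nor the RUNX motif TGNGGTT was found in the promoters of the 6 matched members, while 3.65% and 14.9% of all promoters held them. A match to these letters is a description of the sequence and not a binding site.

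Over all 6 libraries, no other member was among the genes whose pattern was most like *Cxcl12*. By the root mean square difference of centred log2 CPM, the nearest of 16170 genes were *A630001G21Rik* at 0.014, *Tek* at 0.031, *Ttk* at 0.034, *Atxn3* at 0.039 and *Ets1* at 0.040. *Tek* encodes the TIE2 receptor for the angiopoietins. The closest member was *Ebf3* in place 4270, followed by *Lepr* in place 7650 and *Pdgfrb* in place 7989, and *Kitl* came in place 11733. *Pdgfra* was the farthest member, in place 13768. The 6 points of each comparison share libraries and the scaling, and no p is given.

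The 14 receptors and ligands that act with these factors also gave no call with edgeR, at an adjusted p of 0.992 or above, and their median log2 fold change was -0.065. At an unadjusted p under 0.05, 2 were higher and 1 was lower, or 3 of 14 beside 3.64% of all genes tested (328 higher and 423 lower). *Angpt2*, whose product competes with angiopoietin 1 for TIE2, was at 18.4, 17.3 and 17.6 CPM in Atrx-cKO and at 14.3, 14.4 and 14.6 CPM in control libraries. The groups did not overlap, as for 4.3% of all genes tested in this direction, and the log2 fold change was 0.30 with an interval from 0.095 to 0.51 (unadjusted p = 0.010, adjusted p = 0.992 by edgeR). *Tek* was at 49.4, 47.6 and 52.3 CPM against 47.1, 42.1 and 37.6 CPM, also without overlap, with a log2 fold change of 0.24 (unadjusted p = 0.045, adjusted p = 0.992 by edgeR). All 8 endothelial markers had estimates above 0 with a median log2 fold change of 0.11, and their sum was 819, 850 and 849 CPM in Atrx-cKO and 838, 734 and 757 CPM in control libraries. The part of vessel content in the *Tek* and *Angpt2* values was not tested.

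Among the ligands of the PDGF receptors, *Pdgfd* was at 43.8, 53.6 and 56.8 CPM in Atrx-cKO and at 53.8, 79.4 and 70.4 CPM in control libraries. Control 1 lay within the Atrx-cKO values, and the log2 fold change was -0.40 with an interval from -0.77 to -0.036 (unadjusted p = 0.035, adjusted p = 0.992 by edgeR). The other ligands had estimates of -0.18 for *Pdgfa*, -0.14 for *Pdgfb* and -0.20 for *Pdgfc*, with intervals that included 0. *Pdgfra*, *Pdgfa*, *Pdgfc* and *Pdgfd* each had controls 2 and 3 above control 1. The summed osteoblast markers had the same order among the controls, at 99286 and 89091 CPM in controls 2 and 3 and 57865 CPM in control 1. The Atrx-cKO sums were level at 62383 to 62744 CPM. *Pdgfa* and *Pdgfc* were also nearly level there, while *Pdgfra* and *Pdgfd* rose from Atrx-cKO 1 to Atrx-cKO 3. Most of each sum was *Col1a1*, at 57564 to 58165 CPM in Atrx-cKO and 53548 to 92517 CPM in control libraries. Each osteoblast marker had controls 2 and 3 above control 1. Not all were level over the Atrx-cKO libraries, with *Bglap* at 1791, 2140 and 2568 CPM. The order of the controls was not particular to bone markers. The 5 chondrocyte markers summed to 1558 and 1531 CPM in controls 2 and 3 and 1044 CPM in control 1. The part of bone or cartilage content in the values of *Pdgfra* and the ligands was not tested.

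The receptors for the other secreted factors had estimates on both sides of 0 and intervals that included it. *Cxcr4*, the receptor of CXCL12, had a log2 fold change of -0.058, and *Kit*, the receptor of KIT ligand, one of -0.029. *Ackr3*, which scavenges CXCL12, was at 27.7, 47.4 and 31.7 CPM in Atrx-cKO and at 55.8, 42.7 and 41.9 CPM in control libraries, a log2 fold change of -0.40 with an interval from -0.88 to 0.090. *Il7r* and *Il2rg*, the chains of the interleukin 7 receptor, were at 0.30 and 0.066, and *Itga4* and *Itgb1*, which encode the integrin bound by VCAM1, at -0.073 and -0.015. *Lep*, the leptin gene, was low at 0.35 to 2.88 CPM, or 20 to 192 counts per library, with a log2 fold change of -0.65 and an interval from -2.30 to 0.99. Its estimate moved with single libraries, to -1.88 without Atrx-cKO 1 (unadjusted p = 0.013, adjusted p = 0.999 by edgeR) and to -0.11 without control 2.

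**Figure D4:**
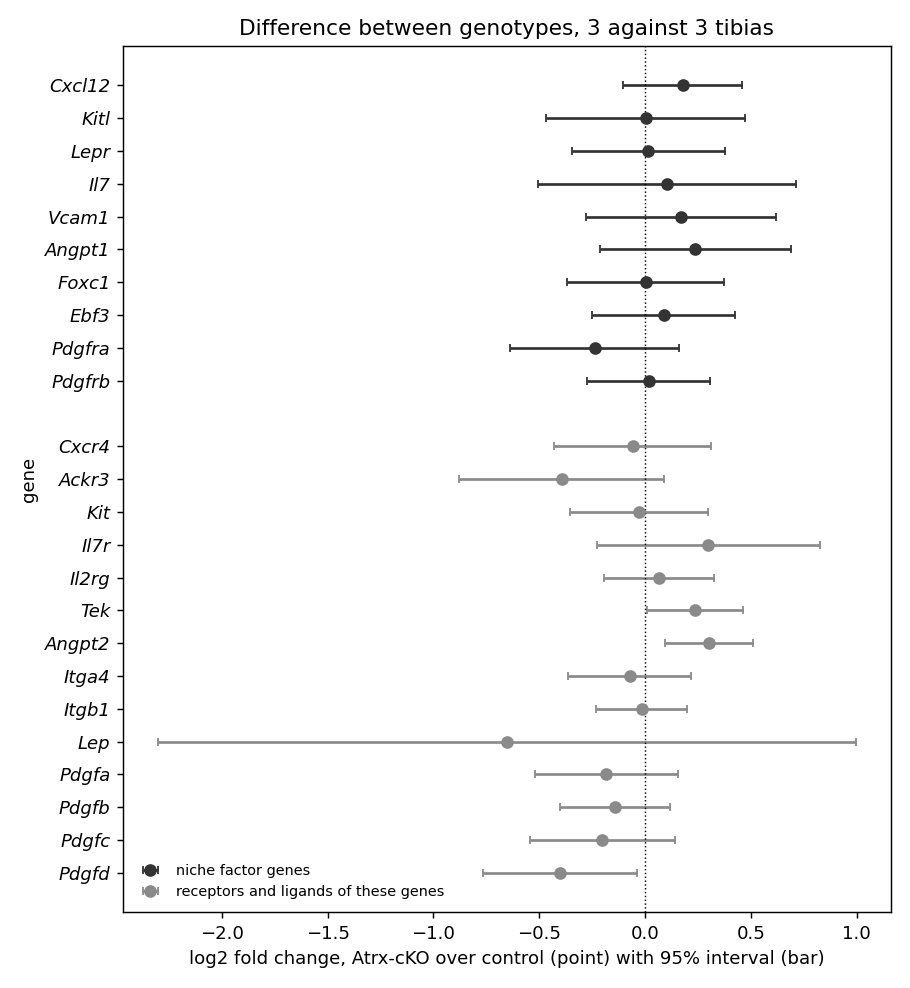
log2 fold change of Atrx-cKO over control (horizontal axis) with its 95% interval for the 10 niche genes (black) and the 14 receptors and ligands that act with them (grey). The intervals of all niche genes include 0, and among the partners those of Tek, Angpt2 and Pdgfd do not.

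Further niche signals, stromal genes and blood stem cell genes were also without a call in edgeR, where all adjusted p were 0.992 or above. Of 19 other niche signals, 0 were higher and 1 was lower at an unadjusted p under 0.05, beside 3.64% of all genes tested, and the median log2 fold change was -0.12. The lower gene was *Ptn*, which encodes the stem cell growth factor pleiotrophin, at 22.9, 28.2 and 19.7 CPM in Atrx-cKO and 26.1, 41.6 and 52.7 CPM in control libraries (log2 fold change -0.77, unadjusted p = 0.016). *Thpo*, which encodes thrombopoietin, was at 1.0 to 1.6 CPM in Atrx-cKO and 1.6 to 2.8 CPM in control libraries and did not pass even that threshold.

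Of 23 other marrow stromal genes, 1 was higher and 2 were lower at an unadjusted p under 0.05, beside 3.64% of all genes tested, with a median log2 fold change of 0.056. *Eng*, which encodes the TGF-beta coreceptor endoglin of vessels and stroma, was higher by 0.22 (unadjusted p = 0.035). *Pdpn*, which encodes podoplanin and is also made by young osteocytes, was lower by a log2 fold change of -0.65 (unadjusted p = 0.017) and *Snai2* by one of -0.36 (unadjusted p = 0.043). The groups did not overlap for *Snai2*, as for 4.01% of all genes tested in this direction, nor for *Eng* and *Gli1* in the other. *Adipoq*, a further marker of adult reticular cells, was at 48.0, 66.3 and 74.2 CPM in Atrx-cKO and at 63.4, 50.4 and 65.6 CPM in control libraries. It was lowest in Atrx-cKO 1, as were 7 of the 23 genes, beside 18.9% of all genes tested, and 3 of the 23 were highest there. The 13 genes of blood stem and progenitor cells had 0 at an unadjusted p under 0.05 in either direction and a median of 0.027, with a sum of 326, 357 and 325 CPM in Atrx-cKO and 371, 289 and 279 CPM in control libraries.

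The cell type lists around the niche had no call either. The median log2 fold change was 0.13 for 8 B cell, 0.22 for 5 neutrophil, 0.11 for 7 erythroid and 0.32 for 4 megakaryocyte genes, and 0.028 for 8 genes of pericytes and smooth muscle. It was -0.27 for 6 osteoblast, -0.082 for 5 osteocyte, -0.11 for 5 chondrocyte, -0.35 for 6 adipocyte, -0.33 for 7 fibroblast and tendon and 0.075 for 5 Schwann cell and nerve genes. For the 12 skeletal muscle genes it was -1.49, with the summed level of control 3 far above the rest. *Myh1*, *Myh2* and *Mb* went otherwise, highest in Atrx-cKO 1 at 181, 69.5 and 76.7 CPM. Control 3 was the lowest control for them, at 52.4, 10.7 and 30.2 CPM. At an unadjusted p under 0.05, *Dpt* and *Tnmd* of the fibroblast and tendon list, *Ibsp* of the osteoblast list and *Col2a1* of the chondrocyte list were lower, with log2 fold changes of -0.95, -0.90, -0.51 and -0.56. The niche median of 0.053 was near those of the other marrow stromal genes at 0.056, the Schwann cell and nerve genes at 0.075 and the pericyte and smooth muscle genes at 0.028. Over all genes tested it was 0.0050. The medians of osteocyte genes at -0.082 and of blood stem and progenitor genes at 0.027 were also near 0. Differences between lists were not tested.

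**Figure D5:**
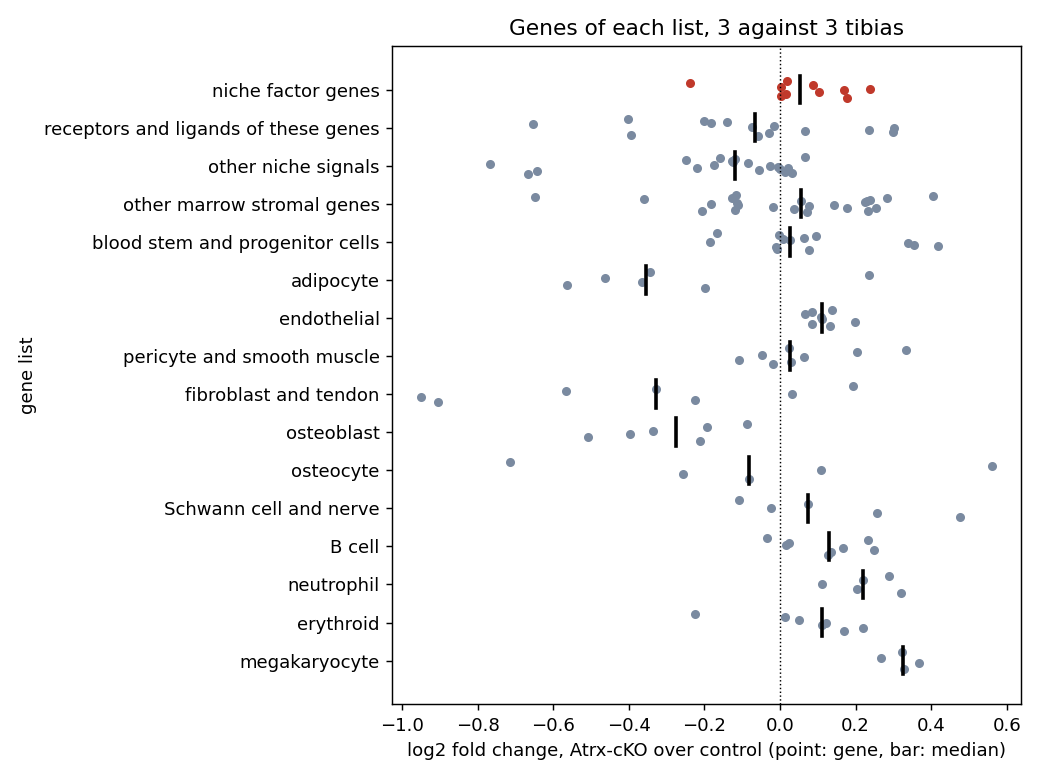
log2 fold change of Atrx-cKO over control (horizontal axis) of each gene in the niche genes (red) and in 15 other lists (grey-blue), with a black bar at the median of each list. The niche genes lie between -0.24 and 0.24 with a median of 0.053, and the skeletal muscle and chondrocyte lists are left out of the plot.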

How the data were processed

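RNA of 6 tibias (3 Atrx-cKO and 3 control mice, grouped by the genotype label) was polyA-selected and sequenced paired-end. Raw read counts were deposited by the authors for each library separately, for 55401 gene identifiers beside 5 summary entries. The aligner and counter are not given in the sources used here, and the submitters' processing notes name GRCm38 and DESeq2 without a role. The summary entries (no feature 51.6% to 52.4%, not unique 3.69% to 4.56%, ambiguous 0.644% to 0.701%) entered neither library sizes nor tests.

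GENCODE M21 named 55141 identifiers and left 260 unnamed. Counts were fitted by genotype with edgeR 4.0.16 in R 4.3.3 (TMM, filterByExpr, glmQLFit, glmQLFTest), which tested 20636 genes with p adjusted by Benjamini-Hochberg. Intervals used 7.61 total degrees of freedom, the residual ones plus those that edgeR borrows across genes. log2 CPM used a prior count of 0.5. A count of 0 allows up to 3 counts, or 0.045 to 0.063 CPM, for counting error only. DESeq2 1.42.0, other scaling and filters, a replicate block, a muscle covariate and left-out libraries were alternatives. An exact permutation test of 3 against 3 cannot go below p = 0.1. Tables were handled in Python 3.11.15 with pandas 2.3.3.

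The members and gene lists were chosen with earlier results of these data known. Members and their partners were named throughout, and in other lists up to 3 genes with the lowest unadjusted p under 0.05. *Thpo*, *Adipoq*, *Gli1*, *Gm45278*, *Col1a1*, *Bglap*, *Myh1*, *Myh2*, *Mb* and the ratios to *Cxcl12* were chosen after their values were seen.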

Additional observations from a re-analysis of the deposited data

How the results depend on the processing

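The count of niche genes called was 0 under all 13 alternatives, with a lowest adjusted p of 0.369 (*Pdgfra*, without control 1) and a largest log2 fold change of 0.45 in size (*Angpt1*, without control 1). The absence of members at an unadjusted p under 0.05 depended on control 1. Without it, the unadjusted p by edgeR was 0.014 for *Pdgfra*, 0.027 for *Angpt1* and 0.029 for *Cxcl12*, with log2 fold changes of -0.40, 0.45 and 0.27. The share of all genes at that threshold in this fit is not given here. The number of genes called in the whole table was 3 by edgeR, 10 with no filter, 1 with at least 10 counts in every library, 37 by DESeq2, and 0 to 5 without 1 library (0 without Atrx-cKO 1, Atrx-cKO 2 or control 2 and 5 without control 3), and the cause was not tested. The correlation of deviations between mice of the same replicate number was -0.029, 0.056 and -0.067. These values over all genes gave no sign of pairing by number. With 3 mice per genotype they cannot exclude it, and the labels do not state it. With the replicate block, 0 genes were called and *Kitl* moved to -0.035, *Lepr* to -0.0027 and *Foxc1* to -0.023 (log2). With the skeletal muscle covariate, *Kitl* moved to -0.14, *Lepr* to -0.090, *Foxc1* to -0.060, *Ebf3* to -0.016 and *Itgb1* to 0.0050. In all, 22 of 130 member values changed sign, and 4 members (*Cxcl12*, *Vcam1*, *Angpt1* and *Pdgfra*) had no change of sign.

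Without 1 library, the median log2 fold change of the niche genes ran from -0.059 to 0.20. The ranges that crossed 0 were -0.16 to 0.22 for *Kitl*, -0.10 to 0.17 for *Lepr*, -0.084 to 0.32 for *Il7*, -0.20 to 0.15 for *Foxc1*, -0.035 to 0.22 for *Ebf3*, -0.098 to 0.12 for *Pdgfrb*, -0.20 to 0.14 for *Cxcr4*, -0.13 to 0.11 for *Kit*, -0.21 to 0.039 for *Itga4* and -0.072 to 0.0095 for *Itgb1*. Each member rested on at least 429 counts per library, and every comparison on 3 mice per genotype.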
